A study of Mus musculus with 5 samples.

Results

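The Z-disc and desmin genes described here are Myoz2, Myoz1, Ldb3, Des, Pdlim3, Pdlim5, Pdlim7, Fhl1, Fhl2 and Tcap. They were taken by symbol from the platform annotation, and all 10 had at least 1 probe set assigned to them alone, 23 probe sets in all of 45037, among 18194 genes named that way. The set was chosen by function with the measured genotype differences of Myoz2, Ldb3 and Des in view, so the genotype differences below are a description and not evidence for the choice. RNA of thoracic aorta was hybridised to Affymetrix mouse whole-genome arrays, on which each probe set reads a transcript mostly near its 3′ end. The P467L group had 3 arrays of male C57BL/6 mice with a transgene for human PPARγ carrying the dominant negative P467L mutation, which the promoter of smooth muscle myosin heavy chain directs to smooth muscle. The non-transgenic group had 2 arrays of male littermates without the transgene. Each array held a pool of 6 to 8 aortas, so differences between single animals are not seen, and the age of the mice was not given in the sources used here. All levels below are log2 values made by the authors with RMA, which can be compared between arrays for 1 probe set but not between probe sets, and all differences are P467L minus non-transgenic in log2 units.

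In striated muscle the Z-disc anchors the actin filaments of neighbouring sarcomeres through α-actinin. Smooth muscle has no Z-discs; its dense bodies and dense plaques hold α-actinin and several of the same PDZ-LIM and LIM-only proteins, and desmin intermediate filaments run between them. The myozenins, also called calsarcins, bind α-actinin and the calcium-dependent phosphatase calcineurin; Ldb3 and the Pdlim proteins join a PDZ domain that binds α-actinin to LIM domains; Tcap caps the end of titin. Transcription of many of these genes in muscle is known to depend on serum response factor, which binds the CArG box, and on MEF2 factors.

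Myoz2, which encodes the calsarcin of heart and slow muscle, had the lowest P467L levels relative to the littermates of the 23 probe sets, and each of the 3 Ldb3 probe sets was lower as well. Desmin was higher in P467L aortas by 1 of its 2 probe sets. The remaining genes, Myoz1, Pdlim3, Pdlim5, Pdlim7, Fhl1, Fhl2 and Tcap, differed by at most 0.45 in either direction. No difference of these genes passed the limma test at an adjusted p of 0.05, which 0% of the 45037 probe sets did (0 of them, and 3353 had an unadjusted p under 0.05).

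Promoter windows of Myoz2, Ldb3 and Des, the 3 genes with an unadjusted p under 0.05, are shown beside that of Fhl2, which holds both a CArG box and a MEF2 motif. They run from 250 bases before to 50 bases after the RefSeq start, are written 5′ to 3′ on the gene's own strand, and come from RefSeq on GRCm38.p6; capitals mark a CArG box or a MEF2 motif.
Myoz2, chr3:123034938-123035237, minus strand: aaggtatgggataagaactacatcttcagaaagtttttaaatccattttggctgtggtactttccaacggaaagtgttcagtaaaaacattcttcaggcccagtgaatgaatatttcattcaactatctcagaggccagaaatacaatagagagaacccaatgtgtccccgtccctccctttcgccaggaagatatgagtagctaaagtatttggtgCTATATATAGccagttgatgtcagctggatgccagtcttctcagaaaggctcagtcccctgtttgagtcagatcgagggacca
Ldb3, chr14:34588632-34588931, minus strand: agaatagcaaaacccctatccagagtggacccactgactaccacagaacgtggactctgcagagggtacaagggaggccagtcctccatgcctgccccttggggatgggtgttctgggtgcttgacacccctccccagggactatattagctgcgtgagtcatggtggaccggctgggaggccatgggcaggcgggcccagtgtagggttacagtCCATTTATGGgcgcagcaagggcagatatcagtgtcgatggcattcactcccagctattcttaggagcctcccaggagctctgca
Des, chr1:75360042-75360341, plus strand: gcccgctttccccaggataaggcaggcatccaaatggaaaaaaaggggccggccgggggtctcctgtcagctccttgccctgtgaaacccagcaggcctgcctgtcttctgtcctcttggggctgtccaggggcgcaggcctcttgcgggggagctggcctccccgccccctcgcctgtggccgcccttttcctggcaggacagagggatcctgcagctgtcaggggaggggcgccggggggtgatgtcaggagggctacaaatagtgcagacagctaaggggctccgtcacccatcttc
Fhl2, chr1:43196712-43197011, minus strand: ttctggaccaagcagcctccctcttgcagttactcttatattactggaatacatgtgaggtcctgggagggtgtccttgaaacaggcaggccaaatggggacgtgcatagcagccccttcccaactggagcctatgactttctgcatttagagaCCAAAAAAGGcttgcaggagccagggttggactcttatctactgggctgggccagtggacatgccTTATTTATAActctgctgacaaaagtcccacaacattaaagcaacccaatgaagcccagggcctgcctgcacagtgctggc

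The search covered 12 windows of 8 of the 10 genes on both strands, for the CArG box, the MEF2 motif, the E-box CANNTG, the nuclear receptor half-site AGGTCA and the direct repeat of that half-site with 1 base between, the form bound by PPAR with RXR. Myoz2 held a MEF2 motif starting 33 bases before the start and no CArG box. Ldb3 held a CArG box 35 bases before the start of the window shown, and its other window overlaps this one and holds the same box. The Des window held neither. Fhl2 held a CArG box 96 bases and a MEF2 motif 31 bases before the start of the window shown, and its other window held a further CArG box. A CArG box was found in 5 of the 12 windows, of 3 genes, the remaining gene being Fhl1, against 1.63% of 32851 windows of the same length over all genes; the MEF2 motif was in 2 of 12, against 3.19%. The half-site AGGTCA was in 1 of the 12, a window of Pdlim5, against 16.3%, its repeat in 0 of 12, against 0.0396%, and the E-box in 8 of 12, against 72.3%. Matches of different motifs did not overlap in these windows. A match of letters is not a bound site, and these windows leave out any element farther away.

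The myozenins differed from each other. Myoz2, on chromosome 3 and read by 1 probe set (1418769_at), measured 7.71, 7.58 and 7.53 in P467L replicates 1 to 3, against 8.73 and 8.85 in non-transgenic replicates 1 and 2. All 3 P467L arrays lay below both non-transgenic arrays, with a gap of 1.02 between the groups. Mean levels were 7.61 ± 0.09 in P467L aortas (SD, n = 3), against 8.79 ± 0.08 in littermates (SD, n = 2). The difference was -1.18 (SE 0.08, 95% interval from -1.39 to -0.98), a level 2.27-fold lower, with a limma adjusted p of 0.126 over all probe sets. Of the 45037 probe sets, 41, itself counted, had a difference at least as negative. The difference ran from -1.24 to -1.12 when each array was left out in turn. Myoz1, the calsarcin of fast skeletal muscle, on chromosome 14, had a dim probe set (1448636_at) with 4.05, 4.05 and 4.02 in P467L and 4.07 and 4.05 in non-transgenic arrays. Its brighter probe set (1460202_at) measured 7.35, 7.24 and 7.23 in P467L aortas and 7.24 in both non-transgenic arrays. The groups overlapped for both, with 95% intervals of the difference from -0.11 to 0.07 and from -0.11 to 0.17. Whether a dim probe set lies above background was not tested, since the deposited values hold no detection calls.

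Ldb3, also known as ZASP or Cypher, links α-actinin to signalling proteins at the Z-disc, and lies on chromosome 14. Its brightest probe set (1433783_at) measured 10.21, 10.34 and 10.42 in P467L aortas, against 10.72 and 10.71 in the littermates. The second (1416752_at) measured 8.30, 8.30 and 8.23 in P467L aortas, against 8.60 and 8.52. The third (1451999_at) measured 7.63, 7.41 and 7.51 in P467L aortas, against 7.86 and 7.85. For each of them every P467L array lay below both non-transgenic arrays, by a gap of 0.22 to 0.29. The annotation ties each probe set to a different source sequence. The differences were -0.39 (SE 0.07, 95% interval from -0.59 to -0.19), -0.28 (SE 0.05, from -0.41 to -0.15) and -0.34 (SE 0.08, from -0.54 to -0.13), or levels 1.31-, 1.22- and 1.26-fold lower. Their limma adjusted p were 0.405, 0.360 and 0.470. All 3 stayed below 0 in every setting tried, with values from -0.44 to -0.24.

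**Figure D1:**
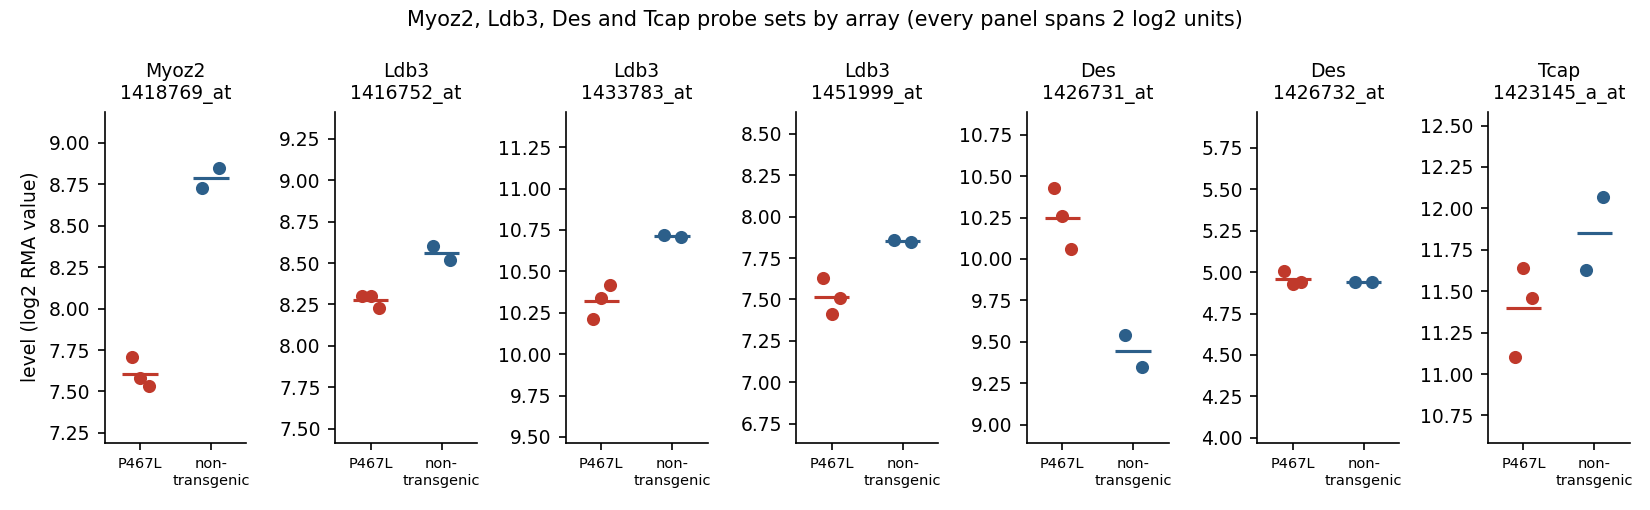
Log2 RMA levels of the Myoz2, Ldb3, Des and Tcap probe sets on each array, P467L (red, 3 arrays) left of non-transgenic (blue, 2 arrays); horizontal lines are group means and every panel spans 2 log2 units. The groups are apart for Myoz2, the 3 Ldb3 probe sets and the brighter Des probe set, and overlap for the dim Des probe set and for Tcap.

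The other PDZ-LIM genes did not separate by genotype. Pdlim3, or ALP, binds α-actinin and is on chromosome 8. Its probe set (1449178_at) measured 12.60, 12.50 and 12.42 in P467L arrays and 12.50 and 12.47 in non-transgenic arrays, so the difference was 0.02 (95% interval from -0.16 to 0.20). Pdlim7, or Enigma, on chromosome 13, measured 12.81, 12.75 and 12.56 in P467L arrays and 12.69 and 12.65 in non-transgenic arrays by its brightest probe set (1428319_at), so the difference was 0.04 (95% interval from -0.20 to 0.28). Of its other probe sets, 1417959_at gave 0.15 (SE 0.11) and 1443785_x_at gave -0.02 (SE 0.05). The first of these ran from 0.07 without P467L replicate 1 to 0.22 without P467L replicate 3. In all 3 Pdlim7 probe sets P467L replicate 1 was the highest array.

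Pdlim5, or ENH, which ties protein kinase C and other signalling proteins to the actin cytoskeleton, lies on chromosome 3 and had 7 probe sets. Several come from the same transcript sequence and some can read more than 1 transcript form, so they are not 7 independent readings. Their differences ran from -0.07 to 0.12, and the groups overlapped for each of them. The brightest (1427475_a_at) measured 11.38, 11.62 and 11.71 in P467L aortas, against 11.53 and 11.38, a difference of 0.12 (SE 0.12, 95% interval from -0.21 to 0.44). The widest spread was in 1422862_at, with 7.32, 7.31 and 8.00 in P467L aortas, against 7.61 and 7.62. In that probe set 2 P467L arrays lay below and 1 above the littermates. P467L replicate 3 was the highest of the 5 arrays in 7 of the 7 probe sets. In each of them the SD among the P467L pools was larger than the size of the difference between the genotypes.

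**Figure D2:**
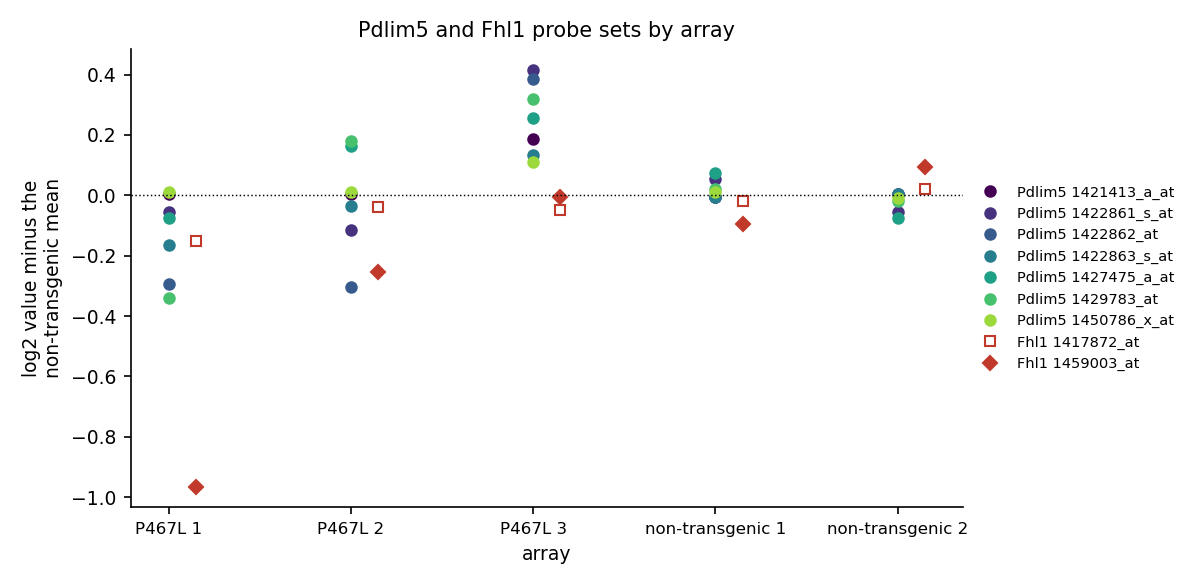
Log2 value of each Pdlim5 probe set (circles) and Fhl1 probe set (squares and diamonds) on each array, minus that probe set's non-transgenic mean; the P467L arrays are on the left. P467L replicate 3 is the highest array in all 7 Pdlim5 probe sets, and the dimmer Fhl1 probe set is far lower in P467L replicate 1 than elsewhere.

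Among the LIM-only proteins, Fhl1 is abundant in striated and smooth muscle and lies on the X chromosome. Its bright probe set (1417872_at) measured 13.41, 13.52 and 13.51 in P467L aortas, against 13.54 and 13.58. The P467L arrays were below the littermates by a gap of 0.02, and the difference was -0.08 (SE 0.05, 95% interval from -0.22 to 0.06). With each array left out in turn it ran from -0.10 to -0.05, the last without P467L replicate 1. The other Fhl1 probe set (1459003_at) measured 7.74, 8.45 and 8.70 in P467L aortas, against 8.61 and 8.80, and the groups overlapped. Its difference was -0.41 (SE 0.32) with all arrays. With each array left out in turn it ran from -0.61 to -0.13, the last without P467L replicate 1. In that array Malat1, a nuclear noncoding RNA, measured 8.03, against 9.69 and 9.87 in the other P467L arrays and 9.45 in both non-transgenic arrays, and 842 probe sets were lower than on every other array by 1 log2 unit or more; their part in the Fhl1 value was not tested. Fhl2, a LIM-only cofactor of transcription that also sits at focal adhesions, on chromosome 1, measured 9.10, 8.94 and 8.86 in P467L aortas (1419184_a_at), against 8.75 and 8.83. The P467L arrays were higher by a gap of 0.03, and the difference was 0.18 (SE 0.09, 95% interval from -0.06 to 0.41). With each array left out in turn it ran from 0.11 to 0.23, the first without P467L replicate 1.

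Tcap, or telethonin, on chromosome 11, measured 11.10, 11.64 and 11.46 in P467L aortas (1423145_a_at), against 11.63 and 12.07. The groups overlapped, since P467L replicate 2 lay above non-transgenic replicate 1. The difference was -0.45 (SE 0.22, 95% interval from -1.06 to 0.16). With each array left out in turn it ran from -0.67 to -0.23, the last without non-transgenic replicate 2. That array was also the highest in stomach transcripts, with Gkn2, a gastric secreted protein, at 10.23, 10.22 and 10.02 in the P467L arrays and 8.79 and 13.32 in non-transgenic replicates 1 and 2; their part in the Tcap value was not tested. Without both that array and P467L replicate 1, the Tcap difference was -0.08.

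Desmin, the main intermediate filament protein of muscle, is encoded by Des on chromosome 1. Its bright probe set (1426731_at) measured 10.43, 10.26 and 10.06 in P467L aortas, against 9.54 and 9.35 in the littermates. All 3 P467L arrays lay above both non-transgenic arrays, with a gap of 0.52. Mean levels were 10.25 ± 0.19 in P467L aortas (SD, n = 3), against 9.45 ± 0.13 in littermates (SD, n = 2). The difference was 0.81 (SE 0.13, 95% interval from 0.44 to 1.17), or 1.75-fold, with a limma adjusted p of 0.360, and 106 probe sets, itself counted, had a difference at least as positive. It ran from 0.71 to 0.90 when each array was left out in turn, and was 0.62 without both P467L replicate 1 and non-transgenic replicate 2. The dim probe set of Des (1426732_at), which the annotation derives from the same source sequence, measured 5.01, 4.93 and 4.94 in P467L arrays and 4.94 in both non-transgenic arrays. Its difference was 0.02 with a 95% interval from -0.09 to 0.13, so the higher level rests on 1 probe set. Its mean level stood at the 30.1st percentile of all probe sets, and that of the bright one at the 90.4th. Of the protein-coding genes on either side, each read by its brightest probe set, Dnpep, an aspartyl aminopeptidase, differed by -0.01 (SE 0.03) and Speg, a kinase of striated muscle, by -0.08 (SE 0.08).

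**Figure D3:**
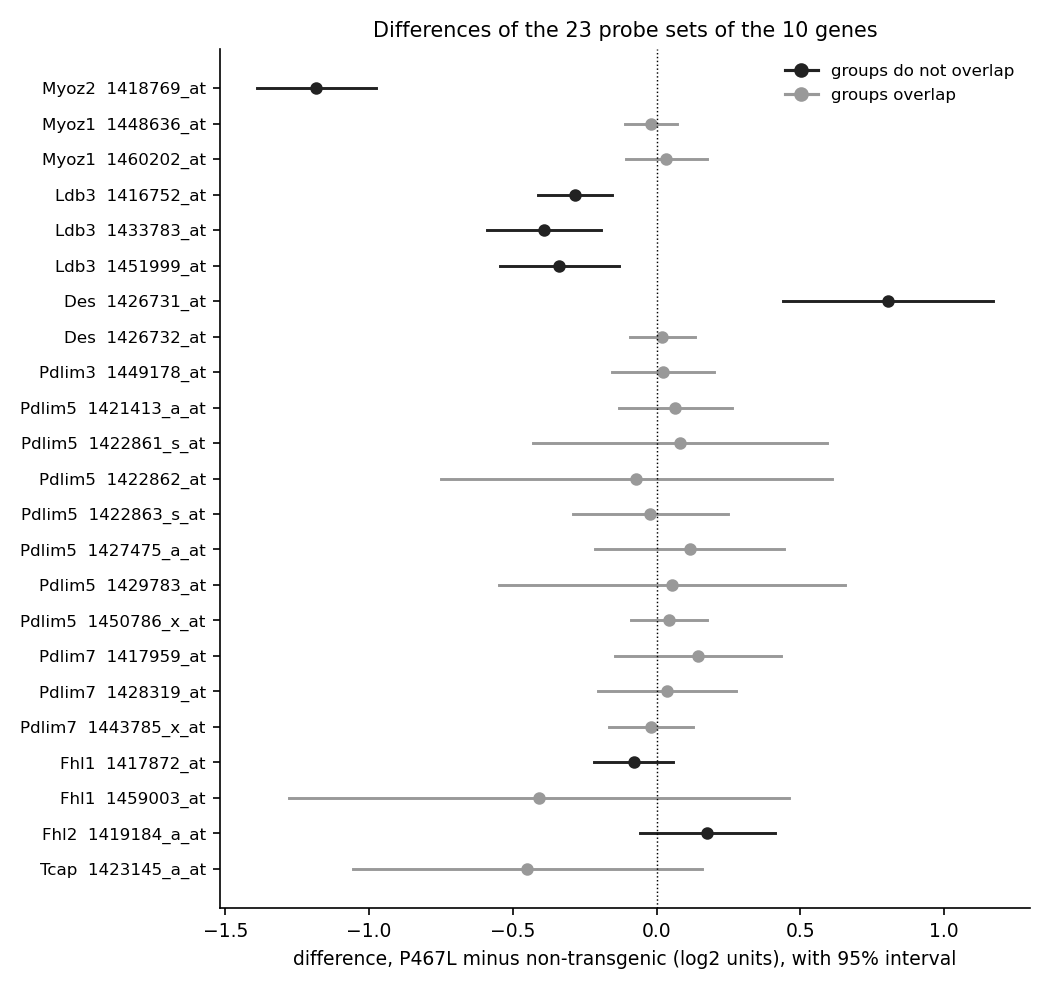
Difference of each of the 23 probe sets, P467L minus non-transgenic in log2 units, with its 95% interval from limma; black marks probe sets in which the groups do not overlap and grey those in which they do. Myoz2 lies at -1.18, the 3 Ldb3 probe sets between -0.39 and -0.28, and the bright Des probe set at 0.81.

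Counted over all 23 probe sets, 5 had an unadjusted p under 0.05, 1 higher (Des) and 4 lower (Myoz2 and Ldb3), against 7.44% of all probe sets, 4.71% higher and 2.74% lower. In 7 of the 23 the groups did not overlap, 2 higher and 5 lower, against 18.9% of all probe sets, 11.2% higher and 7.61% lower. Since Myoz2, Ldb3 and Des were known beforehand, nothing is read from these counts. The median difference of the 23 was 0.02, and that of all probe sets was 0. The 4 probe sets of Ldb3 and Myoz2 and the bright 1 of Des had limma adjusted p from 0.126 to 0.470, and the remaining 18 from 0.784 to 0.968.

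The cells in the samples bear on these values, because in pooled tissue fewer cells of a type and less RNA per cell cannot be told apart. Smooth muscle markers were bright on all arrays, 8 of 8 measured, with a summed level (log2 of the summed linear values) of 16.8 on every array. Acta2 and Tagln, at 14.79 to 14.83 and 14.65 to 14.68, lay near the top of the scale. Of the 8, 5 had a positive difference and 3 a negative one, with a median of 0.02. At an unadjusted limma p under 0.05, 1 was higher, Smtn (0.16, SE 0.04), and 0 lower. Other probe sets of Acta2, Myh11 and Mylk reached -0.39, -0.25 and 0.42. Myh11, the myosin whose promoter drives the transgene, measured 13.9 on each array by its brighter probe set. Cardiac muscle markers, 12 of 12 measured, had a summed level of 11.8 to 11.9 in P467L aortas, against 10.4 to 10.7 in the littermates. A sum of linear values gives most weight to the brightest genes. Of the 12, 7 had a positive difference and 5 a negative one, with a median of 0.05. At an unadjusted p under 0.05, 2 of the 12 were higher and 0 lower, against 6.94% higher and 2.51% lower of all 18194 genes. The first was Tnnc1, cardiac and slow troponin C, at 10.98, 10.98 and 10.63 in P467L aortas, against 6.40 and 5.75. The second was Tnnt2, cardiac troponin T, at 9.35, 9.24 and 9.48, against 8.43 and 8.24, by its brightest probe set. The groups lay apart for both genes by these probe sets. The differences of the 3 Tnnt2 probe sets ran from -0.11 to 1.02. Myh6, the main cardiac myosin heavy chain of adult mice, differed by 0.83 (SE 0.40) by its brighter probe set and by 0.08 by its dimmer one. Myl2, the ventricular myosin light chain, was at 4.32 to 4.33 in P467L and in non-transgenic arrays. Actc1 went the other way, at 7.46, 7.30 and 7.51 in P467L aortas, against 7.93 and 7.51, a difference of -0.30 (SE 0.15) with overlapping groups. Skeletal muscle markers, 12 of 12 measured, had a summed level of 9.85 to 10.3 in P467L aortas, against 9.57 to 10.1. Of the 12, 3 had a positive difference and 9 a negative one, with a median of -0.07. Ckm, the muscle creatine kinase, was the 1 gene of them with an unadjusted p under 0.05. It measured 9.08, 8.77 and 8.27, against 7.67 and 7.09, by its brighter probe set, while its dimmer one differed by 0.03. Atp2a1, the calcium pump of fast muscle, differed by -0.44 (SE 0.24), and Acta1, skeletal actin, measured 6.63, 6.10 and 6.22, against 6.97 and 6.23. The part of these cell types in the Myoz2 and Des values was not tested.

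Other genes of the same structures were read from 4 lists, each gene by its brightest probe set in the same fit. None of their members passed the adjusted test, and the counts that follow are at an unadjusted p under 0.05, which 9.45% of the 18194 genes reached, 6.94% higher and 2.51% lower; the median difference of all genes was 0.02. Of 30 other Z-disc genes measured, 2 were higher and 2 lower, with a median of 0.00. Palld, which encodes palladin, an actin-bundling protein of dense bodies and Z-discs, measured 11.73, 11.42 and 11.50 in P467L aortas, against 10.36 and 10.06. The groups lay apart, the difference was 1.34 (SE 0.14) with a limma adjusted p of 0.209, and a second bright probe set gave 1.29 (SE 0.15), while its 2 dim probe sets gave 0.12 and -0.10. Obsl1, a cytoskeletal adaptor protein, differed by 0.25 (SE 0.04), and its 5 probe sets ran from -0.08 to 0.37. Smyd1, a methyltransferase of striated muscle, differed by -0.21 (SE 0.03) by its brightest probe set, and its other 5 ran from -0.10 to 0.07. Actn2, the sarcomeric α-actinin of heart and skeletal muscle, measured 6.34, 6.44 and 6.73 in P467L aortas, against 7.11 and 6.85, a difference of -0.48 (SE 0.15); the broadly expressed Actn1 differed by 0.03 (SE 0.04) by its brightest probe set, and its 3 probe sets ran from 0.03 to 0.31.

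Of 16 PDZ-LIM and LIM-only relatives, 1 was higher and 2 lower, with a median of -0.04. Pdlim1, or CLP36, which binds α-actinin like its relatives above, measured 12.56, 12.52 and 12.37 in P467L aortas, against 12.76 and 12.77, a difference of -0.28 (SE 0.07), while its 2 dimmer probe sets gave -0.05 and -0.03. Lims2, a PINCH protein of focal adhesions, differed by -0.13 (SE 0.04), and Csrp2, the LIM protein of smooth muscle, by 0.18 (SE 0.06).

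Of 13 intermediate filament and linker genes, 1 was higher and 1 lower, with a median of -0.08. Nes, which encodes the intermediate filament protein nestin, measured 9.89, 9.87 and 9.75 in P467L aortas, against 10.26 and 10.30, a difference of -0.44 (SE 0.06), while its 2 dimmer probe sets gave -0.11 and 0.02 with overlapping groups. Plec, which encodes plectin, the linker that ties desmin to dense plaques and Z-discs, measured 12.17, 12.19 and 11.96, against 11.67 and 11.69. Its difference was 0.43 (SE 0.09), a second bright probe set gave 0.45 (SE 0.09), and a dim 1 gave 0.09. Dsp, desmoplakin, differed by 0.10 (SE 0.04), and its 3 probe sets ran from -0.09 to 0.10. Vim, encoding vimentin, the other abundant filament protein of the vessel wall, measured 14.4 on every array, near the top of the scale, and Synm, whose protein synemin copolymerises with desmin, differed by 0.01 (SE 0.03) by its brighter probe set and by -0.50 by its dimmer one. The keratins Krt8 and Krt19, which are filament proteins of epithelia, were highest in the non-transgenic array with the high Gkn2 level: Krt8 measured 7.51, 8.11 and 7.63 in P467L aortas, against 7.22 and 9.87, with overlapping groups.

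Of 13 genes of calcineurin and its NFAT pathway, 1 was higher and 1 lower, with a median of -0.01. Rcan1, a calcineurin inhibitor whose transcription is itself known to respond to calcineurin, measured 9.95, 9.88 and 9.79 in P467L aortas, against 9.30 and 9.35. Its difference was 0.55 (SE 0.06) with a limma adjusted p of 0.229, and its second probe set gave 0.43 (SE 0.10). Rcan2, a related inhibitor, differed by -0.15 (SE 0.04), and the transcription factor Nfatc1 by -0.12 (SE 0.05), its 5 probe sets running from -0.12 to 0.07. The catalytic subunit genes Ppp3ca and Ppp3cb both differed by -0.11 (SE 0.12 and 0.07), and their probe sets ran from -0.11 to -0.05 and from -0.31 to -0.03.

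**Figure D4:**
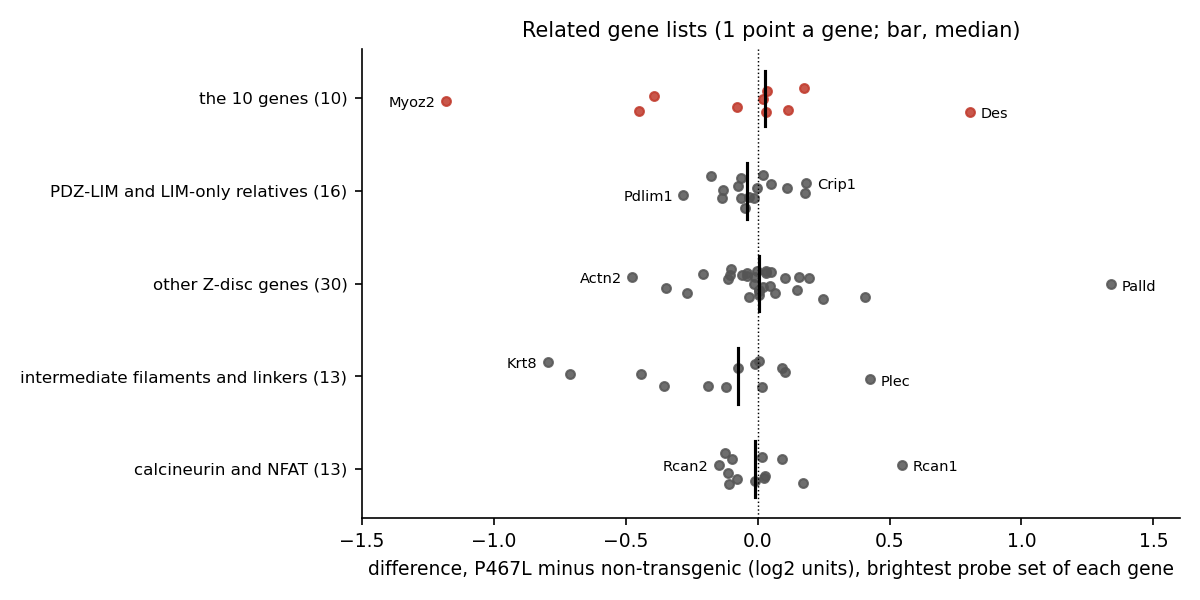
Difference of each gene by its brightest probe set, P467L minus non-transgenic in log2 units, for the 10 genes (red) and the 4 related lists (grey), with the number of genes measured and a bar at each median; the lowest and highest gene of each row are named. Most genes of every list lie near 0. On the higher side are Palld at 1.34, Des at 0.81 and Rcan1 at 0.55. On the lower side are Myoz2 at -1.18, Krt8 at -0.795 and Krt19 at -0.713.

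The genes whose pattern over the 5 arrays was closest to that of Myoz2, by the root mean square difference of log2 values centred on each probe set's own mean, were Timp4 (0.0564), Fam81a (0.0779), Ccn5 (0.0911), 2210407C18Rik (0.103) and Rhobtb1 (0.125). Timp4, an inhibitor of matrix metalloproteinases, measured 7.07, 6.87 and 6.73 in P467L aortas, against 7.95 and 8.11, and Ccn5, a secreted matricellular protein of smooth muscle, 10.64, 10.67 and 10.37, against 11.58 and 11.82. For the bright Des probe set the closest were Pcsk5 (0.0219), Gys1 (0.0258), Hrc (0.0476), Prr15 (0.0641) and Amigo2 (0.0683). Pcsk5, a proprotein convertase, measured 9.87, 9.64 and 9.45 in P467L aortas, against 8.96 and 8.77; Gys1, muscle glycogen synthase, measured 7.52, 7.35 and 7.14, against 6.69 and 6.47; and Hrc, a calcium-binding protein of the sarcoplasmic reticulum, measured 9.28, 9.07 and 8.82, against 8.40 and 8.25. These genes were picked for their likeness over 5 arrays, so that likeness is a description.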

How the data were processed

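The deposited values are log2 levels. The submitters' processing notes name RMA and Affymetrix Power Tools, with no version given in the sources used here. RMA subtracts background, gives the arrays a common distribution by quantile normalization and reduces each probe set to 1 value. A change common to most transcripts is lost in that step. Probe sets were named from the platform annotation with symbols updated through NCBI gene numbers (GRCm38.p6 gene table): 34945 of 45037 had 1 gene, 932 several and 9160 none in the table, and 64 control probe sets were left out. Genotypes were tested over all probe sets by moderated fits without covariates (limma 3.58.1, R 4.3.3, two-sided), with Benjamini-Hochberg adjustment, a threshold of 0.05 and 4.23 degrees of freedom per test. The script was tested on simulated data. Of each related list the 3 genes with the smallest p were to be named, and for Myoz2 and Des the 5 genes of closest pattern among probe sets brighter than the median. Tnnc1, Tnnt2, Myh6, Myl2, Actc1, Ckm, Atp2a1, Acta1, Actn1, Actn2, Vim, Synm, Ppp3ca, Ppp3cb, the smooth muscle markers, the flanking genes and the keratins are named besides, with their values known. The 10 genes, the lists and the tests were chosen with earlier results of these data known. Other marker lists, each with 0 genes past the adjusted threshold, were stomach (median difference -0.91), adipocyte (0.02), endothelium (0.03) and the nuclear RNAs Malat1 and Neat1 (-0.26). Single arrays stood out in the stomach and nuclear RNA lists. The summed stomach level was 15.1 in non-transgenic replicate 2, against 11.6 in non-transgenic replicate 1 and 12.1 to 12.5 in P467L arrays. The summed nuclear RNA level was 10.8 in P467L replicate 1, against 12.0 to 12.3 in the other arrays. Of the lists, Xirp2, Trim55, Plin1 and Cfd were not matched to a single-gene probe set. The replicate numbers of the labels were checked for pairing: deviations from the group means correlated at 0.11 for number 1 and 0.01 for number 2, so the numbers were not taken to pair the arrays. With 5 arrays, precision is limited by their number. The labels name no batch.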

Additional observations from a re-analysis of the deposited data

How the results depend on the processing

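Each of the 23 differences was recomputed under 12 or 13 of the 14 alternatives, leaving out that of 1 probe set per gene and, for dim probe sets, the filter on dim ones. In those, 12 of the 23 kept their sign, those of Myoz2 and Ldb3 and the bright Des probe set among them, and the 11 whose sign changed in some setting all had a main difference of at most 0.08 in size. The count of all probe sets past an adjusted p of 0.05, 0 in the fit reported, was 15 with each array centred on its median, 10 with 1 probe set per gene, 2245 with limma's array weights and 283 with weights estimated gene by gene, an alternative chosen after seeing the data. The default weights did not converge and gave P467L replicate 2 a weight of 34.1, against 0.148 to 0.901 for the other arrays; 5 of the 23 probe sets passed under them (Myoz2, Ldb3 and the bright Des probe set) and 1, Myoz2, under the second kind. At an unadjusted p of 0.05 the count of all probe sets, 3353, was 12941 and 9153 under the weights in that order, 1733 with 1 probe set per gene, which tests fewer, 5157 without P467L replicate 1 and non-transgenic replicate 2 together (also chosen after seeing the data), and 2206 to 4808 with each array left out, the lowest without P467L replicate 2. The count of the 23 past it, 5, was 8 with array weights, 3 with 1 probe set per gene, 3 without those 2 arrays and 4 to 6 with each array left out. With the replicate number as a block 0 probe sets passed the adjusted threshold, and at an unadjusted p of 0.05 it was 4012 of all and 7 of the 23; replicate 3 has no partner and drops out of that fit, so the block is given here only as a check. The causes of these shifts were not tested.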

Other observations

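Beside the Z-disc genes on the genome lie others with muscle roles. Synpo2 neighbours Myoz2 on chromosome 3 and encodes myopodin, an actin-bundling protein of smooth muscle and Z-discs. Its brightest probe set measured 12.50, 12.75 and 12.77 in P467L aortas, against 12.78 on both non-transgenic arrays. The groups did not overlap, and the difference was -0.11 (SE 0.10). The differences of its 4 probe sets ran from -0.43 to -0.11, each smaller in size than that of Myoz2. Usp53, on the other side of Myoz2, differed by -0.46 (SE 0.46), with overlapping groups. Sorbs2, the neighbour of Pdlim3, encodes an adaptor of actin and focal adhesions; it measured 10.76, 10.86 and 10.99 in P467L aortas, against 10.36 and 10.32, a difference of 0.53 (SE 0.08) with a limma adjusted p of 0.320, while Pdlim3 itself differed by 0.02. Synpo2l, the neighbour of Myoz1 and a relative of Synpo2, differed by 0.41 (SE 0.20) with overlapping groups by its brightest probe set. The differences of its 4 probe sets ran from 0.085 to 0.955. The flanking genes were read by position, each by its brightest probe set unless others are given. Those described here are a choice among them, made after their values were seen. Of the rest, Bmpr1b beside Pdlim5 differed by -0.45 (SE 0.12) and AI597479 beside Fhl2 by 0.20 (SE 0.04). The groups lay apart for both. Usp54 beside Myoz1 differed by 0.02 (SE 0.03) and Dok3 beside Pdlim7 by 0.10 (SE 0.09), with overlapping groups.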
